A study of Homo sapiens with 4 samples.

Results

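Integrins, laminins and collagens join cells to the extracellular matrix. Their genes were described in SHMT2-knockdown and control cells of the SW480 and SW620 lines. A gene was taken when its symbol was ITGA or ITGB with a number or letter, LAMA, LAMB or LAMC with a number, or COL with a number, A and a number, and when 2 or more libraries held 10 counts of it or more. The deposited table lists 83 such symbols among its 26364 rows, and 47 of them reached the minimum. These were 15 of 27 integrin genes, 10 of 12 laminin genes and 22 of 44 collagen genes. Another 13 symbols with a similar spelling, such as antisense genes, pseudogenes and integrin-binding proteins, were left out.

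SW480 and SW620 are human colorectal cancer lines from the same patient, SW480 from the primary tumor and SW620 from a lymph node metastasis. RNA of each line was sequenced as 1 library with SHMT2 knockdown and 1 control library, 4 libraries in all. In the study's system, doxycycline (DOX) turns on a lentiviral short hairpin RNA (shRNA) against SHMT2, the mitochondrial serine hydroxymethyltransferase that makes glycine and one-carbon units from serine. The labels name the other group only as control and the study's text calls it control shRNA cells. Whether these cells received doxycycline is stated in neither, so the knockdown and an action of the drug cannot be told apart if only 1 group received it, and which hairpin was sequenced is not given in the sources used here. SHMT2 was measured at 277 CPM (counts scaled to library size) in control and 30.9 CPM in knockdown SW480 cells, and at 688 and 47.6 CPM in SW620 cells. Its level fell by 3.54 on the log2 scale (standard error (SE) 0.12).

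An integrin is a pair of an alpha and a beta subunit in the cell membrane. The outer parts bind matrix proteins such as laminin, collagen and fibronectin, and the inner parts hold adaptors that lead to the actin or keratin skeleton. A laminin is a trimer of an alpha, a beta and a gamma chain, and laminins and type IV collagen form the sheets of the basement membrane under the colon epithelium. Other collagens build fibrils, bead-like filaments or anchoring fibrils, or stay in the membrane. Colorectal cancer cells make many of these chains themselves, while stromal cells make most of the fibrillar collagen in a tumor.

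The libraries held 5530129 to 13774288 counts, with the knockdown library the shallower of its pair in SW480 and the deeper in SW620. Of 12 markers of colorectal epithelium, 10 reached the count minimum, with a sum of 5470 to 10600 CPM per library. Most of this sum was KRT8, KRT18 and KRT19. CDH17 and LGR5 reached the minimum in SW620 only, with 1 and 0 counts each in SW480, and KRT20 did not reach it. CDX1 was at 0 counts in all libraries and VIL1, an epithelial brush border gene, had 2 and 1 counts in SW480 against 2029 and 5105 in SW620. Of 8 fibroblast markers, 1 reached the minimum, and the list summed to 0.208 to 24.8 CPM. This sum was almost all LUM in SW620, and PDGFRA, FAP, POSTN and DPT were at 0. Endothelial markers summed to 0.733 to 2.87 CPM and leukocyte markers to 4.91 to 11.9 CPM, with 1 of 6 genes at the minimum in either list. These are bulk libraries, in which fewer cells with a transcript and less of it per cell cannot be told apart.

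The genes of type IV collagen lie in 3 pairs, with both genes of a pair starting close together on opposite strands. In RefSeq on GRCh38.p14, COL4A1 and COL4A2 start 127 bp apart on chromosome 13, COL4A4 and COL4A3 start 419 bp apart on chromosome 2, and COL4A6 and COL4A5 start 380 bp apart on chromosome X, with a second COL4A6 start at 1416 bp. The windows of the plus-strand genes, from 250 bases before to 50 bases after the start, are shown because the line differences below followed these pairs. They are chr13:110307034-110307333 for COL4A2, which also holds the COL4A1 start, chr2:227164374-227164673 for COL4A3 and chrX:108439588-108439887 for COL4A5. Capitals mark GC boxes (GGGCGG) and CCAAT boxes (CCAAT) on either strand.
COL4A2: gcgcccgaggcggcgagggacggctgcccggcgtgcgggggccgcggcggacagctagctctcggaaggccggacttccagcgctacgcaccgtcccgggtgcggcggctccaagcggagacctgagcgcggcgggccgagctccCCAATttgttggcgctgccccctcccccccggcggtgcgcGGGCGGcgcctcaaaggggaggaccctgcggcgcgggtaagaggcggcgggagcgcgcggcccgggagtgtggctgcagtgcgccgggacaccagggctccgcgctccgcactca
COL4A3: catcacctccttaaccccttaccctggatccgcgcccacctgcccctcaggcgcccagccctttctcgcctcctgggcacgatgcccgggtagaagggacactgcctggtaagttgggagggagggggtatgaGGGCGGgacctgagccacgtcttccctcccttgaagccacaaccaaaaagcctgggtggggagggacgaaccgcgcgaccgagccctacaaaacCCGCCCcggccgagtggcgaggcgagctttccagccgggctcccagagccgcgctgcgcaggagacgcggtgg
COL4A5: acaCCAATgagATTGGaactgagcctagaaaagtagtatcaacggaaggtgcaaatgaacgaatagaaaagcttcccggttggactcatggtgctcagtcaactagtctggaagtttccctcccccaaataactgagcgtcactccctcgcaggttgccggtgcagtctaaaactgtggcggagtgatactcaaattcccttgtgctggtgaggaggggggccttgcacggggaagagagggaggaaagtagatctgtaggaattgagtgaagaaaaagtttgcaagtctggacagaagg

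The COL4A2 window held 1 GC box and 1 CCAAT box, the COL4A3 window 2 GC boxes and no CCAAT box, and the COL4A5 window no GC box and 2 CCAAT boxes. The 3 windows also differed in base composition, with 77.7%, 67.7% and 49.3% G and C. Of 35116 RefSeq windows of this length, 45.0% held a GC box and 34.6% a CCAAT box. Windows were found for 37 of the 47 genes, and of their 49 windows 65.3% held a GC box and 24.5% a CCAAT box. The letters TATAAA, in 11.5% of all windows, and TGACTCA, in 4.95%, were in none of the 3 windows shown. A match says only that the letters are there.

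The type IV collagen genes divided the lines by pair. COL4A2 was measured at 0.104 and 0.151 CPM in control and knockdown SW480 cells and at 18.2 and 17.7 CPM in SW620 cells. COL4A1, its partner and the other chain of the common basement membrane network, was at 0.104, 0.302, 3.30 and 3.35 CPM in the same order. Both SW620 libraries were above both SW480 libraries for both genes, with a pooled ratio of 145 (95% counting interval 39.7 to 1200) for COL4A2 and 18.0 (5.90 to 89.8) for COL4A1. All intervals given for ratios and for changes within 1 line reflect the number of reads, not the spread between cultures.

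The chains of the networks found in kidney, testis and smooth muscle ran the other way. COL4A5 had 23.8 and 29.6 CPM in SW480 and 0 and 0.0743 CPM in SW620, which is 1 read in the latter line (ratio SW480 over SW620 495, 88.4 to 19594). COL4A4 had 16.7 and 14.8 CPM in SW480 and 0.183 and 0.0743 CPM in SW620, a ratio of 150 (41.2 to 1247). COL4A3 had 6.14 and 7.39 CPM in SW480 and 0.183 and 0.223 CPM in SW620, a ratio of 31.4 (11.9 to 117). In each of these genes the libraries of the lines were far apart and the knockdown library lay beside its control. COL4A6 stood at 2.60 and 3.02 CPM against 0.367 and 0.223 CPM, with the lowest counts of the SW480-high chains. Adjusted p of the line difference was 6.36e-06 or lower for all 6 genes (edgeR quasi-likelihood test, Benjamini-Hochberg), but each of the 6 reached 10 counts in 1 line only and therefore had to differ.

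**Figure D1:**
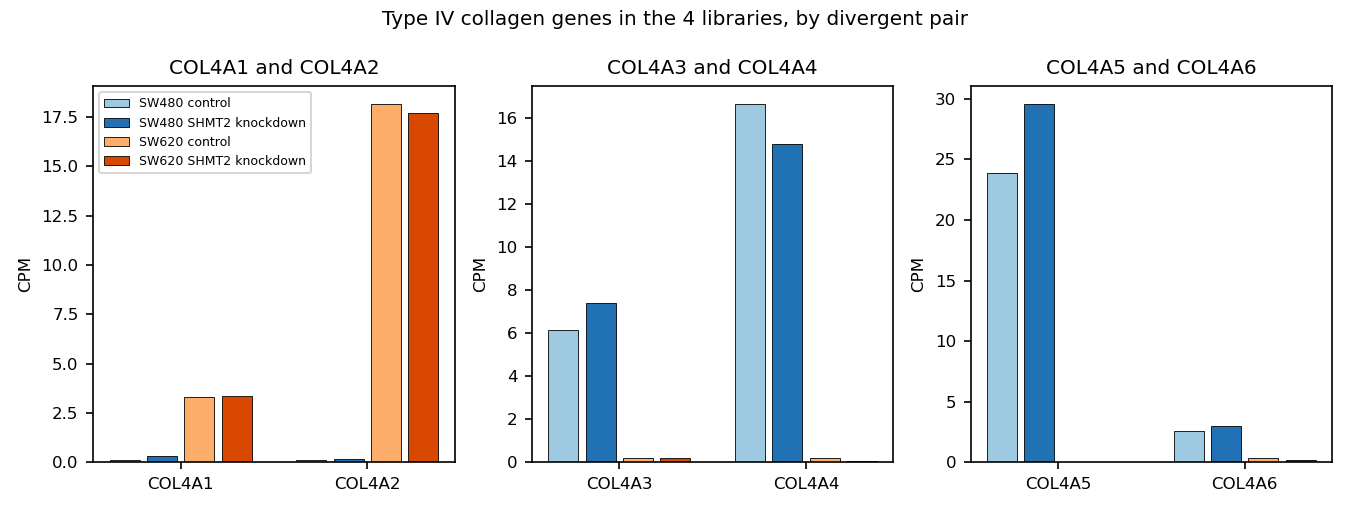
Type IV collagen genes in the 4 libraries, grouped by divergent pair. Bars are CPM in 1 library each, on a linear axis that starts at 0 and has its own range in each panel. COL4A1 and COL4A2 are highest in SW620, reaching 18.2 CPM, and the other 4 genes in SW480, reaching 29.6 CPM.

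Among the other collagens, COL12A1, COL6A2, COL13A1 and COL8A1 were divided most widely between the lines. Each of these genes reached 10 counts in 1 line only and therefore had to differ. COL12A1, a fibril-associated collagen, had 201 and 128 CPM in SW480 and 0.367 and 0.372 CPM in SW620 (ratio 462, 224 to 1150). COL6A2 had 117 and 137 CPM in SW480 and 0 and 0.669 CPM in SW620 (ratio 263, 138 to 576). Its partner in the beaded filaments of type VI collagen, COL6A1, was much less divided, with 155 and 189 CPM against 27.3 and 50.2 CPM. These chains were thus of like level per length in SW480 (COL6A1 over COL6A2 1.33 and 1.39) and not in SW620 knockdown cells (75.6). COL6A3, another type VI chain, was below the count minimum, with 6 and 4 counts in control and knockdown SW480 cells and 1 and 4 in SW620. COL13A1, a transmembrane collagen, had 12.6 and 8.60 CPM in SW480 and no count in either SW620 library, at least 69.1-fold higher in SW480 when 3 counts are taken as the limit over both SW620 libraries. COL8A1, a short network collagen, was the reverse, with 0.104 and 0 CPM in SW480 and 10.3 and 8.77 CPM in SW620 (ratio SW620 over SW480 149, 26.5 to 5935).

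COL18A1, the basement membrane collagen whose end fragment is endostatin, differed little between the lines, with 94.7 and 138 CPM in SW480 and 125 and 171 CPM in SW620 (log2 SW620 minus SW480 0.36, SE 0.12). It made up 11.5% and 15.1% of the summed collagen level per kilobase in SW480 and 42.1% and 43.7% in SW620, where few other collagens were high. COL6A1, COL18A1 and COL6A2 had the highest mean levels per kilobase among the collagens. COL1A1, the main fibrillar collagen of stroma, was at 21.1 and 19.6 CPM in SW480 and at 6.42 and 6.39 CPM in SW620 (ratio SW480 over SW620 3.20, 2.60 to 3.98).

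Of the laminin genes, LAMA5, LAMC1 and LAMB1, which are chains of a common epithelial laminin, had the highest mean levels per kilobase of exon. LAMA5 was measured at 21.8 and 23.8 CPM per kilobase in SW480 and at 11.3 and 13.9 in SW620. LAMC1 was measured at 21.6 and 18.9 CPM per kilobase in SW480 and at 10.8 and 14.9 in SW620. LAMB1 lay at 11.4 and 14.0 in SW480 and at 12.4 and 16.4 in SW620, and its line difference did not pass (log2 SW620 minus SW480 0.17, SE 0.12, adjusted p = 0.207, edgeR). LAMA3 and LAMB3 are chains of a laminin that epithelial cells use for firm anchorage. LAMA3 was the lower of them, at 0.780 and 0.514 CPM per kilobase in SW480 and at 2.84 and 4.64 in SW620, with both SW620 values above both SW480 values. LAMB3 was at 12.1 and 6.98 against 16.5 and 17.5, also higher in SW620. LAMA5 exceeded LAMA3 per kilobase by 28 and 46.3 times in SW480 and by 4 and 2.99 times in SW620. These ratios rest on the length of all annotated exons of each gene. They would change if shorter transcripts were the ones present, which was not determined.

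Among the integrins, ITGB4, the beta chain of the hemidesmosome receptor, ITGB1, the beta chain shared by most matrix integrins, and ITGA6, the alpha chain that pairs with both, had the highest mean levels per kilobase. ITGB4 was at 164 and 175 CPM per kilobase in SW480 and at 50.7 and 59.1 in SW620. ITGB1 was at 72.2 and 65.4 in SW480 and at 40.0 and 50.1 in SW620. ITGA6 was the only 1 of the 3 that was higher in SW620, at 38.2 and 32.0 against 51.9 and 64.0. ITGA3, the alpha chain of another laminin receptor, was at 70.3 and 57.1 CPM per kilobase in SW480 and at 0.561 and 0.607 in SW620. The pooled ratio for ITGA3 was 109 (90.6 to 133), from 6617 and 3711 counts in SW480 and 30 and 80 counts in SW620. ITGA3 was therefore the more abundant of these laminin-binding alpha chains in SW480 (ITGA6 over ITGA3 per kilobase 0.543 and 0.560) and ITGA6 in SW620 (92.4 and 106). ITGB6, which pairs with ITGAV and is typical of migrating epithelium, had 1 count in each SW480 library and 52 and 165 counts in SW620 (ratio SW620 over SW480 93.2, 25.5 to 774). ITGB6 reached 10 counts in SW620 only and therefore had to differ.

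**Figure D2:**
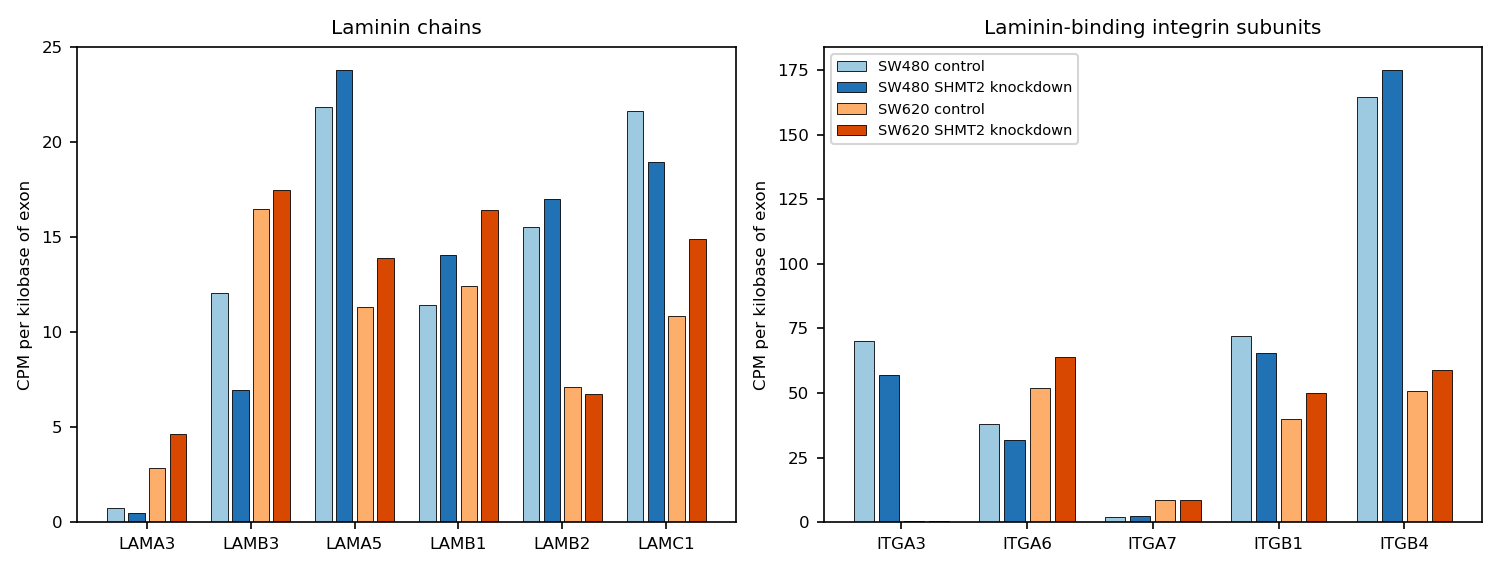
Laminin chains (left) and subunits of laminin-binding integrins (right) per length. Bars are CPM per kilobase of exon in 1 library each, on linear axes that start at 0. ITGA3 is at 70.3 and 57.1 in SW480 and at 0.561 and 0.607 in SW620, and LAMA3 is lowest in SW480 knockdown cells, at 0.514.

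Counted over all 47 genes, 16 were higher in SW620 and 28 in SW480 at an adjusted p under 0.05 (edgeR quasi-likelihood test with terms for line and treatment), and LAMB1, LAMA2 and ITGB8 did not pass. Of all 14024 genes tested, 32.3% were higher in SW620 and 31.3% in SW480, so the count in SW620 was near the background. The members were not free to be equal, since 10 genes had no SW620 library and 5 genes no SW480 library at 10 counts, and all 15 were called. Of the other 32 genes, 11 were higher in SW620 and 18 in SW480. The families took 0.445% and 0.449% of all counts in SW480 and 0.204% and 0.253% in SW620. Integrins summed to 2861 and 2741 CPM in SW480 against 1235 and 1531 CPM in SW620, and collagens to 720.8 and 748.3 against 269.2 and 344.8 CPM. A few genes weighed heavily in these sums. In control cells, ITGB4 was at 1112 CPM in SW480 and 342.5 in SW620, and ITGA3 at 689 and 5.50. COL12A1, COL6A1 and COL6A2 were at 201, 155 and 117 CPM in SW480 control cells. Of 15 integrins, 6 were higher in SW620 and 8 in SW480, and of 22 collagens 8 and 14. The line test takes the control and knockdown libraries of a line as its pair of samples, and its p-values measure only the spread between these 4 libraries.

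**Figure D3:**
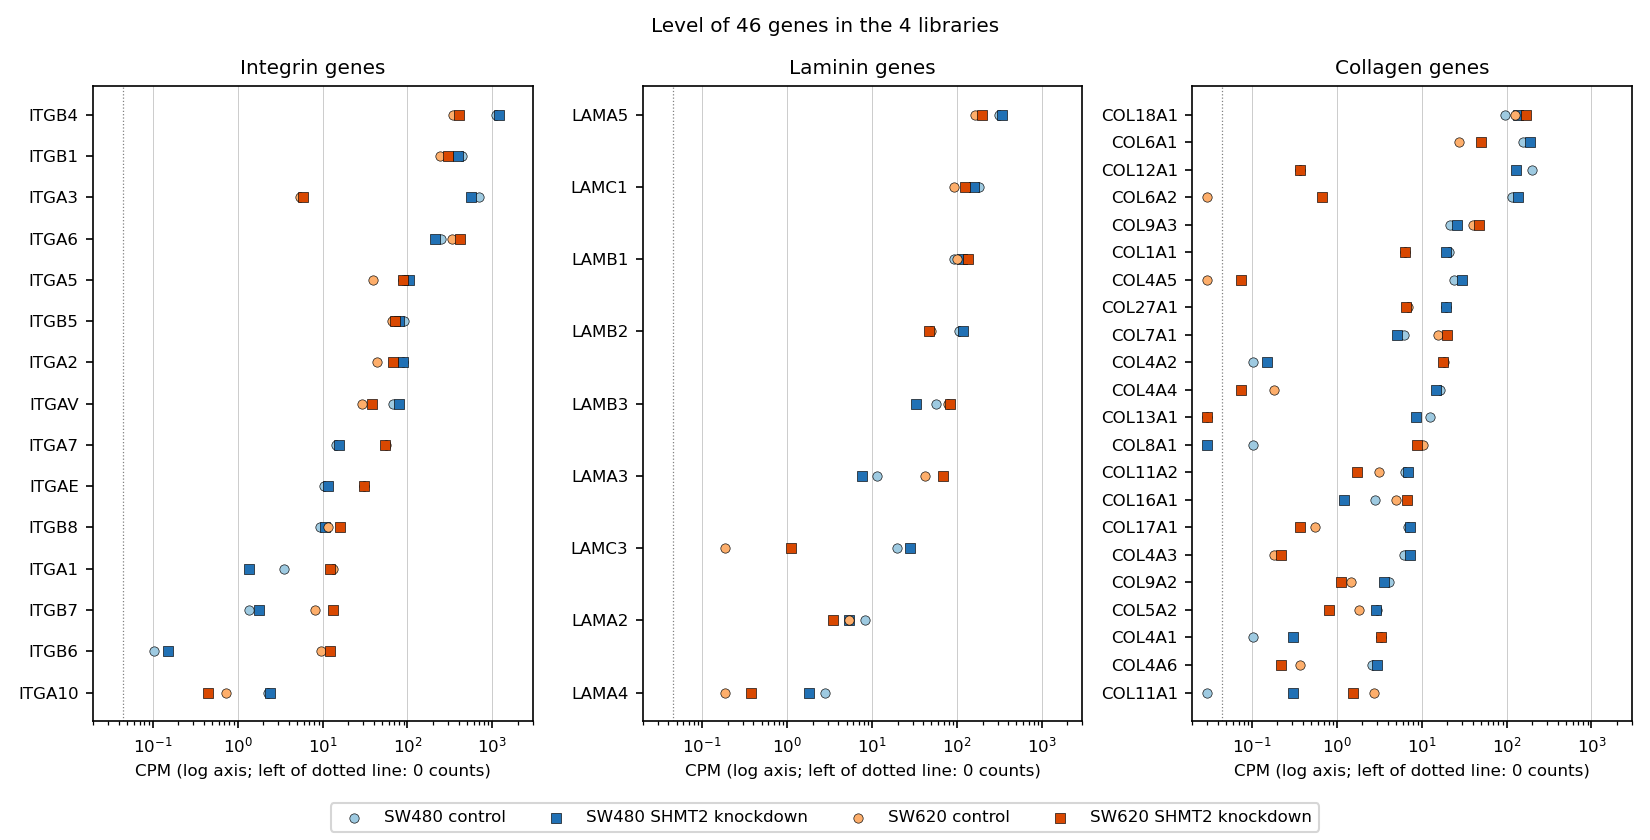
Level of 46 of the 47 genes in the 4 libraries, by family, ordered by mean CPM. Points are CPM of 1 library on a log axis, and points left of the dotted line had 0 counts. Colors mark the lines and shapes the treatment, and ITGA3 is an example of a gene split by line, at 689 and 559.7 CPM in SW480 and 5.50 and 5.95 CPM in SW620.

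Under SHMT2 knockdown, 3 genes rose and 1 fell across the lines. ITGA5, the fibronectin receptor's alpha chain, COL6A1 and COL18A1 were higher in knockdown cells of both lines, and COL12A1 was lower in SW480, the line that expressed it. These are 3 of 47 genes against a background of 0.492% of all genes tested, and 1 of 47 against 1.17%, which is near it. The other 43 genes did not pass an adjusted p of 0.05, and the median log2 change of the 47 was 0.07, against 0.0075 over all genes tested.

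ITGA5 was measured at 89.1 CPM in control and 103 CPM in knockdown SW480 cells, and at 39.2 and 88.2 CPM in SW620 cells. Its difference was 0.66 on the log2 scale (SE 0.13, adjusted p = 0.000171, edgeR). The change was 0.21 (95% counting interval 0.06 to 0.36) in SW480 and 1.16 (0.96 to 1.39) in SW620, and the SW620 knockdown library lay beside the SW480 control. The SE rests on a spread shared across genes and does not measure the gap between these line values. In GENCODE 29, exons of ITGA5 overlap an antisense gene, as do those of 19 of the 47 genes in all, and the use of strand in counting is not given in the sources used here.

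COL6A1 had 155 and 189 CPM in control and knockdown SW480 cells and 27.3 and 50.2 CPM in SW620 cells. Its difference was 0.54 on the log2 scale (SE 0.13, adjusted p = 0.00437, edgeR), with 0.29 (0.18 to 0.40) in SW480 and 0.87 (0.62 to 1.14) in SW620. Of the 4 genes, COL18A1 had the most even change, 0.54 (0.40 to 0.67) in SW480 and 0.45 (0.33 to 0.57) in SW620, and 0.49 across the lines (SE 0.12, adjusted p = 0.00461, edgeR). Its exons overlap those of SLC19A1, the reduced folate carrier, which lies on the opposite strand.

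COL12A1 fell by 0.63 on the log2 scale (SE 0.17, adjusted p = 0.0218, edgeR), from 1927 counts in control to 850 counts in knockdown SW480 cells. This call rested on SW480 alone, in which the change was -0.65 (-0.76 to -0.53), since SW620 held 2 and 5 counts and gave 0.01 (-2.59 to 3.41).

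These 4 calls depended on the test. All 4 were lost with the DESeq2 Wald test, where adjusted p was 0.879 for ITGA5, 0.662 for COL6A1, 0.159 for COL18A1 and 1 for COL12A1, and without the cell line in the model. With every library thinned to 5530129 counts COL18A1 alone remained (adjusted p = 0.0288, edgeR), and the values of ITGA5 and COL6A1 were 0.0849 and 0.128.

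Before adjustment, 7 genes were higher and 3 lower at p up to 0.05, as were 4.15% and 4.91% of all genes tested. The 6 genes beyond those called did not pass the adjusted test. LAMB1 was the closest, at 93.2 and 114 CPM in SW480 and 101 and 134 CPM in SW620, with a log2 difference of 0.35 (SE 0.12, adjusted p = 0.151, edgeR) and values of 0.29 and 0.40 in the lines. ITGAV, the alpha chain of several RGD-binding integrins, had 68.4 and 79.0 CPM in SW480 and 28.8 and 37.9 CPM in SW620, a difference of 0.29 (SE 0.14, adjusted p = 0.466, edgeR). Knockdown libraries were the higher of the pair in both lines for these genes. ITGA2, the alpha chain of a collagen receptor, had 87.7 and 89.3 CPM in SW480 and 43.5 and 68.2 CPM in SW620, so its difference of 0.32 (SE 0.13) came from SW620. LAMC3 had 19.5 and 27.6 CPM in SW480 and 1 and 15 counts in SW620, a difference of 0.63 (SE 0.28). LAMA2, the alpha chain of muscle laminin, had 8.33 and 5.28 CPM in SW480 and 5.32 and 3.42 CPM in SW620, a difference of -0.65 (SE 0.32) and the knockdown library was the lower in both lines. LAMB3 had 56.5 and 32.7 CPM in SW480 and 77.4 and 81.8 CPM in SW620, a difference of -0.32 (SE 0.13) that came from SW480.

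The other genes that divided the lines most did not pass the knockdown test. ITGA3 differed by -0.22 (SE 0.13), with -0.30 (-0.36 to -0.24) in SW480 and 0.11 in SW620, where its counts were low. COL6A2 differed by 0.28 (SE 0.17), with 0.23 (0.10 to 0.36) in SW480. COL4A2 differed by -0.02 (SE 0.32), COL4A4 by -0.20 (SE 0.34), COL4A3 by 0.27 (SE 0.45), COL4A5 by 0.32 (SE 0.28), COL8A1 by -0.26 (SE 0.40), ITGB6 by 0.37 (SE 0.38) and COL13A1 by -0.55 (SE 0.40). Adjusted p was 0.701 or higher for all of these in the edgeR test. For the 7 genes with standard errors of 0.28 or more, a moderate change across the lines was not excluded. Within SW480 the change was -0.54 (-1.03 to -0.09) for COL13A1 and 0.31 (0.03 to 0.59) for COL4A5. For the others of the 7, the interval held 0 in both lines. Of the genes of highest level, ITGB4 differed by 0.16 (SE 0.10) and LAMA5 by 0.21 (SE 0.11), with a higher knockdown library in both lines. The 21 genes outside the rule for named genes ranged from -0.50 for COL11A1 to 0.65 for ITGB7.

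Within the lines, 18 of the 47 genes were higher and 8 lower with knockdown in both, 20 had opposite signs, and COL13A1 had no count in SW620. Of all 14024 genes tested, 3792 were higher and 3468 lower in both lines, and the share with opposite signs, 42.6% of the 47 genes, was near the 45.6% of all genes. Of the 20, 12 were lower in SW480 and higher in SW620, as were 3152 of the 6392 such genes among all tested. For the integrins the median log2 change was 0.09 in SW480 and 0.30 in SW620, for the laminins -0.25 and 0.43, and for the collagens 0.11 and -0.003. Over all genes tested the medians were 0.005 in SW480 and 0.0003 in SW620.

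In 5 genes the counting intervals lay below 0 in SW480 and above 0 in SW620, where 2.49% of all genes tested did so, and in 0 genes the reverse, where 1.24% did. Intervals of genes with many reads clear 0 more easily, and these shares were not taken at like read counts. Values are given for 4 of the 5 genes, the laminin chains LAMA3 and LAMC1 and the subunits ITGA6 and ITGB1, which together form a laminin receptor. LAMA3 had 11.5 and 7.54 CPM in control and knockdown SW480 cells and 41.6 and 68.1 CPM in SW620 cells, changes of -0.59 (-1.12 to -0.11) and 0.71 (0.50 to 0.93). LAMB3 had changes of -0.78 (-1.02 to -0.56) and 0.08 (-0.08 to 0.25), so its SW620 interval reached 0. LAMC1 had 182 and 159 CPM in SW480 and 91.1 and 125 CPM in SW620, changes of -0.19 (-0.30 to -0.08) and 0.46 (0.32 to 0.61). ITGA6 had 249 and 209 CPM in SW480 and 339 and 418 CPM in SW620, changes of -0.25 (-0.35 to -0.16) and 0.30 (0.23 to 0.38). ITGB1 had 434 and 393 CPM in SW480 and 240.7 and 301 CPM in SW620, changes of -0.14 (-0.21 to -0.07) and 0.32 (0.23 to 0.41). The knockdown library was the lower of the pair in SW480 and the higher in SW620 in all 4 of these genes. No line was sequenced again under the same treatment, so the difference between the lines has no replicate check and was not tested. Library depth ran the same way, being lower in SW480 knockdown cells and higher in SW620 knockdown cells than in their controls. Its part in these differences was not tested.

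**Figure D4:**
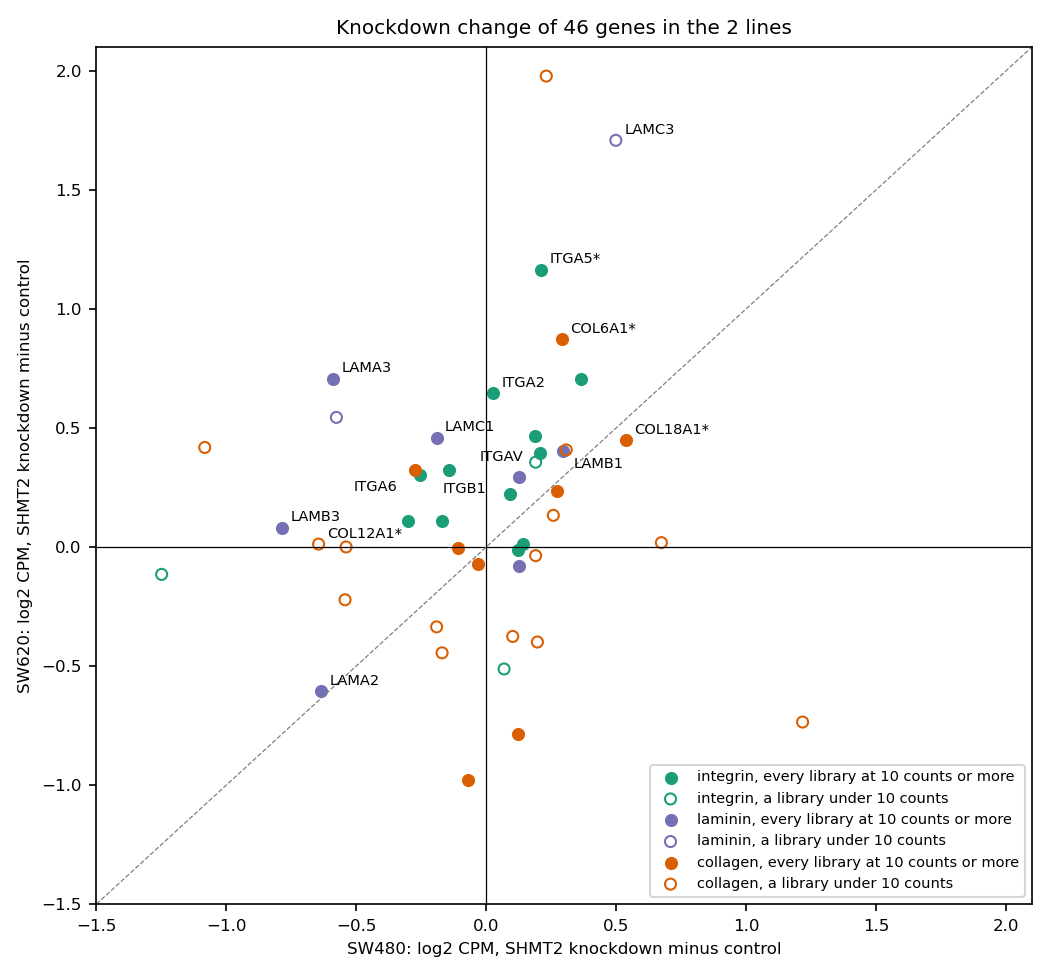
Knockdown change of 46 of the 47 genes in SW480 (horizontal) and SW620 (vertical), as log2 CPM of knockdown minus control. Each point is 1 gene, open where a library had under 10 counts, colored by family, with a dashed line of equal change, and an asterisk marks the 4 genes called across the lines. ITGA5 lies at 0.21 and 1.16, and LAMA3, LAMC1, ITGA6 and ITGB1 lie in the upper left field, lower in SW480 and higher in SW620.

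The proteins around the integrins were read from 5 lists, of which 135 genes were tested, with 5 lower and 3 higher in knockdown cells at an adjusted p under 0.05 (edgeR), where 1.17% of all genes tested were lower and 0.492% higher. Among 37 adaptors and focal adhesion genes, 1 fell and 0 rose, with a list median of -0.002. It was ACTN1, an actin crosslinker at the inner face of adhesions, with -0.35 (SE 0.10). Among 27 other matrix ligands, 2 fell and 1 rose. FN1, fibronectin and the main ligand of the ITGA5 receptor, fell by 0.69 on the log2 scale (SE 0.18), from 15.7 to 12.8 CPM in SW480 and from 46.6 to 23.9 CPM in SW620. The FN1 interval reached 0 in SW480 (-0.70 to 0.10) and not in SW620 (-1.20 to -0.72). THBS1, thrombospondin, fell by 0.76 (SE 0.14) and was lower in both lines. TNC, tenascin, rose by 0.83 (SE 0.15), from 504.8 to 908 CPM in SW620, while SW480 had 3 and 2 counts, so that this call rested on SW620.

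Among 19 receptors for matrix that are not integrins, 1 fell and 0 rose. SDC1, the epithelial syndecan, fell by 0.67 (SE 0.13), from 87.1 to 59.0 CPM in SW480 and from 117 to 68.4 CPM in SW620. Among 30 genes of collagen processing, 1 fell and 1 rose. LOXL3, a lysyl oxidase that crosslinks collagen, fell by 0.71 (SE 0.19), and ADAMTS14, which trims procollagen, rose by 0.80 (SE 0.16), from 25.9 to 51.7 CPM in SW480 and from 22.0 to 32.6 CPM in SW620. Among 22 matrix proteases and inhibitors, ADAM9, a membrane-bound metalloprotease, rose by 0.40 (SE 0.11) and 0 fell. With the DESeq2 Wald test, and with no cell line in the model, 0 genes of these lists were called in either direction. The fit with no cell line called 0 of all 14024 genes.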

How the data were processed

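The authors deposited 1 table of raw counts, with genes by symbol in rows, 1 column per library and no normalization. Columns were matched to samples by title. The submitters' processing notes name Bowtie 0.12.2 and hg18. How reads were counted, by which gene models and whether by strand, is not given in the sources used here. The labels describe Illumina TruSeq libraries of total RNA, while the study's methods name an Agilent microarray and its results an Agilent RNA-seq. All deposited values are whole, and the column totals differ. Totals were 9590550 (SW480 control), 6432779 (SW480 knockdown), 5530129 (SW620 control) and 13774288 (SW620 knockdown).

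The 14024 genes with 10 counts or more in 2 or more libraries were scaled by TMM and fitted in edgeR 4.0.16 (R 4.3.3) with the quasi-likelihood test, two-sided, with terms for cell line and treatment. This left 1 residual degree of freedom, so the spread was shared across genes, and Benjamini-Hochberg adjusted p was taken over all of them. SE was the size of the log2 change divided by the square root of the test's F statistic. It therefore rests on the shared spread and is not the spread between a gene's values in the lines. CPM use the TMM-scaled library size. The labels name no separate cultures. The residual degree of freedom is the difference of the knockdown change between the lines, so p-values rest on that difference, shared across genes. In it, technical spread and an unlike response of the lines cannot be told apart. The cell line pairs the libraries, since a knockdown and its control are of the same line. As a check, each library's distance from its treatment mean was taken for every gene, and these distances correlated at 0.961 between the SW480 libraries. Within a line, log2 values used a prior count of 2, with exact 95% intervals for counting error only and no test.

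Exon lengths are the merged exons of GENCODE 29 on GRCh38, in which all 47 genes were found by symbol, and promoter windows are RefSeq on GRCh38.p14. Neither need be the authors' annotation. Merged exons join all annotated transcripts of a gene, and the transcripts present were not determined. Comparisons of level per kilobase between genes carry this limit. Named genes were those called in the knockdown comparison, those at an unadjusted p of 0.05 or less, the 10 largest called line differences, those with opposite counting intervals in the lines, and the 3 highest per length in each family. COL1A1, COL4A1 and COL4A6 were added after their values were seen. The values of 1 of the 47 genes are not reported here. Of the 5 pathway lists, genes called were named, at most 4 per list. The genes and lists were chosen with earlier results of these data known. On simulated counts, 166 of 199 genes changed by a log2 of 1 among 13814 were recovered for the knockdown comparison, with 8 unchanged genes called. The simulation gave all genes the same dispersion and the same change in both lines. The called genes of the families changed by less than a log2 of 1. It therefore does not show how reliable those calls are, or how the test does where the lines respond unlike each other. Alternatives were DESeq2 1.42.0 (size factors and Wald test), no filter, at least 50 counts in 2 libraries, thinning to 5530129 counts, no cell line term, and each line or treatment left out.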

Additional observations from a re-analysis of the deposited data

Results flagged for a closer look

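In 5 of the 47 genes the knockdown change had opposite signs in the lines, with both counting intervals clear of 0, and values are given for 4 of them. The difference between the lines, SW480 minus SW620 on the log2 scale, was -0.56 for ITGA6, -0.47 for ITGB1, -1.30 for LAMA3 and -0.65 for LAMC1. With 1 library per line and condition these differences were not tested. All 4 were lower with knockdown in SW480 and higher in SW620. Of all 14024 genes tested, 3152 had these signs, and in 2.49% both counting intervals were also clear of 0. That share was not taken at like read counts. Library depth was lower with knockdown in SW480 and higher in SW620, and its part in the result was not tested. The differences were also computed with DESeq2 size factors and with thinned libraries, settings chosen after seeing the data, but since neither is built to change the ratio between the lines of a gene chosen this way, they are no check on it.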

How the results depend on the processing

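In the knockdown comparison, 1 gene of the 3 families was called lower and 3 higher. With the DESeq2 Wald test and with at least 50 counts in 2 libraries both counts were 0, and with thinned libraries they were 0 and 1, while DESeq2 size factors and no filter gave 1 and 3. Before adjustment, 4, 7 and 7 of the genes had p up to 0.05 with the Wald test, the stricter filter and thinning. The fit with no replicate block, in which the pairing by cell line was dropped, called 0 lower and 0 higher, with 0 genes at p up to 0.05 before adjustment and an adjusted p of 1 for ITGA5, COL6A1, COL18A1 and COL12A1. That fit called 0 of all 14024 genes, against 233 with the cell line, 26 with the Wald test, 69 with the stricter filter and 80 with thinning. Of the pathway genes, 5 were lower and 3 higher, against 0 and 0 with the Wald test and with no replicate block, 1 and 2 with the stricter filter, and 2 and 2 with thinning. The cause of these losses was not tested. The median log2 change of 0.0658 became 0.1087 with the stricter filter, and 0.0903 and 0.1329 when 1 line was left out. COL12A1 was at -0.6451 without the SW620 libraries and at 0.0121, from 7 counts, without the SW480 libraries. The line counts of 16 and 28 kept within 12 to 16 and 19 to 28 under all alternatives run, without a change of sign in a named gene. With 1 library per line and condition, and the shallowest at 5530129 counts, collagens with few reads in 1 line give only wide intervals in that line.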
